A study of Homo sapiens with 12 samples.

Results

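SREBF1 and 9 enzymes that make, elongate and desaturate fatty acids were followed in human hepatoma cells given an siRNA against ARD1. The genes were SREBF1, SCD, FASN, ACACA, ACLY, ACSS2, FADS1, FADS2, ELOVL5 and ELOVL6. They were chosen by name for their roles, with earlier results of these data known, and matched by symbol to the Ensembl identifiers of the deposited tables. Counts of these genes set beside shares of all genes are therefore a description. All 10 were found in both tables, among 28704 genes listed in at least one of them, and all 10 passed the filter on low counts in both cell lines.

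The series holds 12 RNA-seq libraries in 4 groups of 3, from cultures labelled Hep-3B or Huh-7, both established human hepatoma lines. In each line 3 libraries came from cells transfected with a negative-control siRNA and 3 from cells transfected with an siRNA against ARD1 (siARD1), so every group had been transfected. The labels give no time after transfection, no siRNA sequence and no number of distinct siRNAs. Nor do they tell whether the replicates came from separate cultures. P-values therefore measure only the spread between these libraries, which may be technical. The gene known as ARD1 is now called NAA10 and encodes the enzyme subunit of NatA, an N-terminal protein acetyltransferase.

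SREBF1 encodes SREBP-1, a transcription factor made as a membrane-bound precursor. SCAP escorts the precursor from the endoplasmic reticulum to the Golgi, INSIG proteins hold it back when sterols are plentiful, and the site-1 and site-2 proteases release the part that enters the nucleus. There it activates genes of fatty acid synthesis, a pathway that is prominent in liver. ACLY and ACSS2 make cytosolic acetyl-CoA, ACACA turns it into malonyl-CoA, and FASN builds palmitate from both. ELOVL6 and ELOVL5 lengthen fatty acids, SCD makes monounsaturated fatty acids, and FADS2 and FADS1 carry out the delta-6 and delta-5 desaturation steps of polyunsaturated fatty acid synthesis.

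Promoter sequences of these genes were taken from RefSeq (GRCh38.p14), as windows from 250 bases before to 50 bases after an annotated start. The table held 14 windows for 9 of the 10 genes, all but FASN. The 4 windows printed here belong to the regulator and to 3 of its known targets with unlike responses to siARD1. They are SREBF1 (chr17:17836937-17837236, minus strand), SCD (chr10:100346983-100347282, plus strand), FADS2 (chr11:61816154-61816453, plus strand) and ACLY (chr17:41918973-41919272, minus strand). Each is written 5′ to 3′ on the strand of the gene, and capitals mark CCAAT, the letters bound by NF-Y, and GGGCGG, the letters of a GC box bound by SP1, either way round (ATTGG and CCGCCC).
SREBF1 promoter: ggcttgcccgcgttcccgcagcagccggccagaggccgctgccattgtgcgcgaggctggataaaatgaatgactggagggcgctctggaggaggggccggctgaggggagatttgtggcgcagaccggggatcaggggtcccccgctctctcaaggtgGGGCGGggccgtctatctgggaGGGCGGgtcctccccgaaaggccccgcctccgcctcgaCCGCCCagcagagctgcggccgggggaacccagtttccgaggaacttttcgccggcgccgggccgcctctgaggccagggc
SCD promoter: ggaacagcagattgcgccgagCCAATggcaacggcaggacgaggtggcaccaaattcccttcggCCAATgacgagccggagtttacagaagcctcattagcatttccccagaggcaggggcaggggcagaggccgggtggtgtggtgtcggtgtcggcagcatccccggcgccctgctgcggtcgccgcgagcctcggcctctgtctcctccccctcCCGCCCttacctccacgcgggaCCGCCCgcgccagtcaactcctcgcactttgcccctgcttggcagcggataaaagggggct
FADS2 promoter: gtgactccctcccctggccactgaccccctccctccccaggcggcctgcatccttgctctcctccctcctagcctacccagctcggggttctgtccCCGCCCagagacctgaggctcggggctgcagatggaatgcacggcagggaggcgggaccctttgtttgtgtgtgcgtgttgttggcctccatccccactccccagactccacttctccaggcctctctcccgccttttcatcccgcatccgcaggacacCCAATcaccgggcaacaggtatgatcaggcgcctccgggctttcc
ACLY promoter: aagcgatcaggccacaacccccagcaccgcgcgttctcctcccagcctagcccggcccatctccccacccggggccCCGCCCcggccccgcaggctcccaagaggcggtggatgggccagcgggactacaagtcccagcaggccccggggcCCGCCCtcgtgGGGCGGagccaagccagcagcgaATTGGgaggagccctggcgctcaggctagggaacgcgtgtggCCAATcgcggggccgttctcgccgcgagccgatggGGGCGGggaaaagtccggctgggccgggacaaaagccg

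CCAAT was found in 8 of the 14 windows and in 34.6% of all 35116 windows of the table. GGGCGG was found in 11 of the 14 and in 45.0% of all windows. The E-box CACGTG was in 1 of the 14, an ELOVL5 window, and in 7.26% of all. The sterol regulatory element written as TCACNCCAC was in 0 of the 14 and in 1.13% of all. Both strands were searched, the 4 motifs were counted separately, and windows of one gene can overlap, so the 14 are not independent. A match is a description of letters in the window. The SREBF1 window lies at the 5′ end of the gene model, and starts without a window were not searched.

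The targeted gene was checked first. NAA10 was at 48.4, 58.7 and 58.7 CPM (counts scaled to library size with TMM factors) in the control libraries labelled Hep-3B and at 10.9, 15.6 and 14.4 after siARD1, which left 24.9% of the control level (edgeR adjusted p = 1.36e-07). In Huh-7 it was at 166, 156 and 200.2 CPM in the controls and at 13.2, 9.86 and 9.99 after siARD1, which left 6.34% (edgeR adjusted p = 1.66e-08). The NAA10 groups did not overlap in either line. Total counts ran from 17327615 to 25960237 per library. In the libraries labelled Hep-3B the level of AFP was 0.26 to 1.97 CPM and that of ALB 0.564 to 6.2 CPM, both known products of Hep-3B cells, against 3182 to 5281 CPM of AFP and 10689 to 12771 CPM of ALB in Huh-7. Whether they come from Hep-3B is in doubt, so they are named by their label.

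In the libraries labelled Hep-3B, the messages of SREBF1, SCD, FASN and FADS2 fell after siARD1 to between 44.3% and 54.9% of control. The acetyl-CoA and malonyl-CoA enzymes ACLY, ACACA and ACSS2 and the elongase ELOVL6 fell to between 71.9% and 81.4%. In all, 8 of the 10 genes fell and 0 rose at an edgeR adjusted p below 0.05, where 15.3% of the 15762 genes tested were lower, 16.8% were higher and 32.2% changed either way. FADS1 and ELOVL5 did not pass. The median log2 fold change (siARD1 minus control) was -0.45 over the 10 genes and -0.011 over all genes tested. In bulk RNA, fewer cells that express a gene and less of its RNA per cell cannot be told apart.

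SREBF1 (ENSG00000072310, GRCh38 chromosome 17, 17810399 to 17837002, minus strand) was at 456, 421 and 376 CPM in the controls labelled Hep-3B and at 189.7, 179 and 186 CPM after siARD1. The lowest control was thus well above the highest siARD1 library. The log2 fold change was -1.17 (SE 0.07, edgeR adjusted p = 2.73e-08), which leaves 44.3% of control (95% interval 40.1 to 49.0%). Ranked by p-value, SREBF1 stood 4 among the 15762 genes and SCD stood 2.

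SCD (ENSG00000099194, chromosome 10, 100347124 to 100364834, plus strand) was at 1921, 1858 and 1836 CPM in these controls and at 956, 879 and 893 CPM after siARD1. Its groups were far apart compared with the spread within each, and its log2 fold change was -1.04 (SE 0.06, edgeR adjusted p = 1.05e-08). FASN (ENSG00000169710, chromosome 17, 82078333 to 82098332, minus strand), the multi-domain fatty acid synthase, was at 621, 519 and 515 CPM in the controls and at 293, 294 and 314 CPM after siARD1. Control 1 stood above the other controls, and the groups did not overlap. The log2 fold change of FASN was -0.88 (SE 0.07, edgeR adjusted p = 5.82e-07).

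FADS2 (ENSG00000134824, chromosome 11, 61792980 to 61867354, plus strand), the delta-6 desaturase, was at 341, 341 and 327 CPM in the controls labelled Hep-3B and at 198, 181 and 175 CPM after siARD1. It fell by 0.86 on the log2 scale (SE 0.06, edgeR adjusted p = 2.07e-07), to 54.9% of control. FADS1 (ENSG00000149485, chromosome 11, 61799625 to 61829318, minus strand), the delta-5 desaturase that lies head to head with FADS2, was at 259, 272 and 276 CPM in the controls and at 251, 243 and 241 CPM after siARD1. The FADS1 groups did not overlap, yet they lay close, and the log2 fold change of -0.14 (95% interval -0.26 to -0.02) had an edgeR adjusted p of 0.0748. FADS1 was past the threshold with upper-quartile scaling (-0.17, edgeR adjusted p = 0.0257) and without control 1 (-0.16, edgeR adjusted p = 0.0364).

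The enzymes that supply FASN had smaller fold changes in the libraries labelled Hep-3B. ACACA (ENSG00000278540, chromosome 17, 37084988 to 37406818, minus strand) was at 132, 133 and 136 CPM in the controls and at 101, 91.5 and 96.5 CPM after siARD1. It fell by 0.48 on the log2 scale (SE 0.06, edgeR adjusted p = 3.03e-05). ACLY (ENSG00000131473, chromosome 17, 41866908 to 41930542, minus strand), which cleaves citrate, went from 259.5, 266 and 264 CPM to 211, 204 and 221 CPM (log2 fold change -0.31, SE 0.06, edgeR adjusted p = 0.000625). ACSS2 (ENSG00000131069, chromosome 20, 34872146 to 34927962, plus strand), which makes acetyl-CoA from acetate, was at 35.9, 31.3 and 27.1 CPM in the controls and at 25.9, 23.1 and 21.9 CPM after siARD1. The gap between the ACSS2 groups was smaller than the spread of its controls, and the log2 fold change was -0.42 (SE 0.11, edgeR adjusted p = 0.0065).

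Of the elongases, ELOVL6 fell there and ELOVL5 did not pass. ELOVL6 (ENSG00000170522, chromosome 4, 110045846 to 110199199, minus strand), which lengthens palmitate, was at 87.9, 84.5 and 84.5 CPM in the controls labelled Hep-3B and at 70.3, 70.8 and 68.1 CPM after siARD1. The spread within each ELOVL6 group was small, and the log2 fold change was -0.30 (SE 0.06, edgeR adjusted p = 0.00177). ELOVL5 (ENSG00000012660, chromosome 6, 53267398 to 53349179, minus strand), which lengthens polyunsaturated fatty acids, was at 201, 162 and 175 CPM in the controls and at 192, 187 and 208 CPM after siARD1. Its groups overlapped, because control 1 was as high as the siARD1 libraries, and the log2 fold change was 0.12 (95% interval -0.03 to 0.28, edgeR adjusted p = 0.221). Without control 1 it was 0.22 (edgeR adjusted p = 0.0142). Of the 10 genes, 9 had all siARD1 libraries below all controls, which held for 22.3% of the genes tested, and 0 had all above, which held for 22.7%. Exact permutation tests over 3 against 3 libraries cannot give a two-sided p below 0.1.

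**Figure D1:**
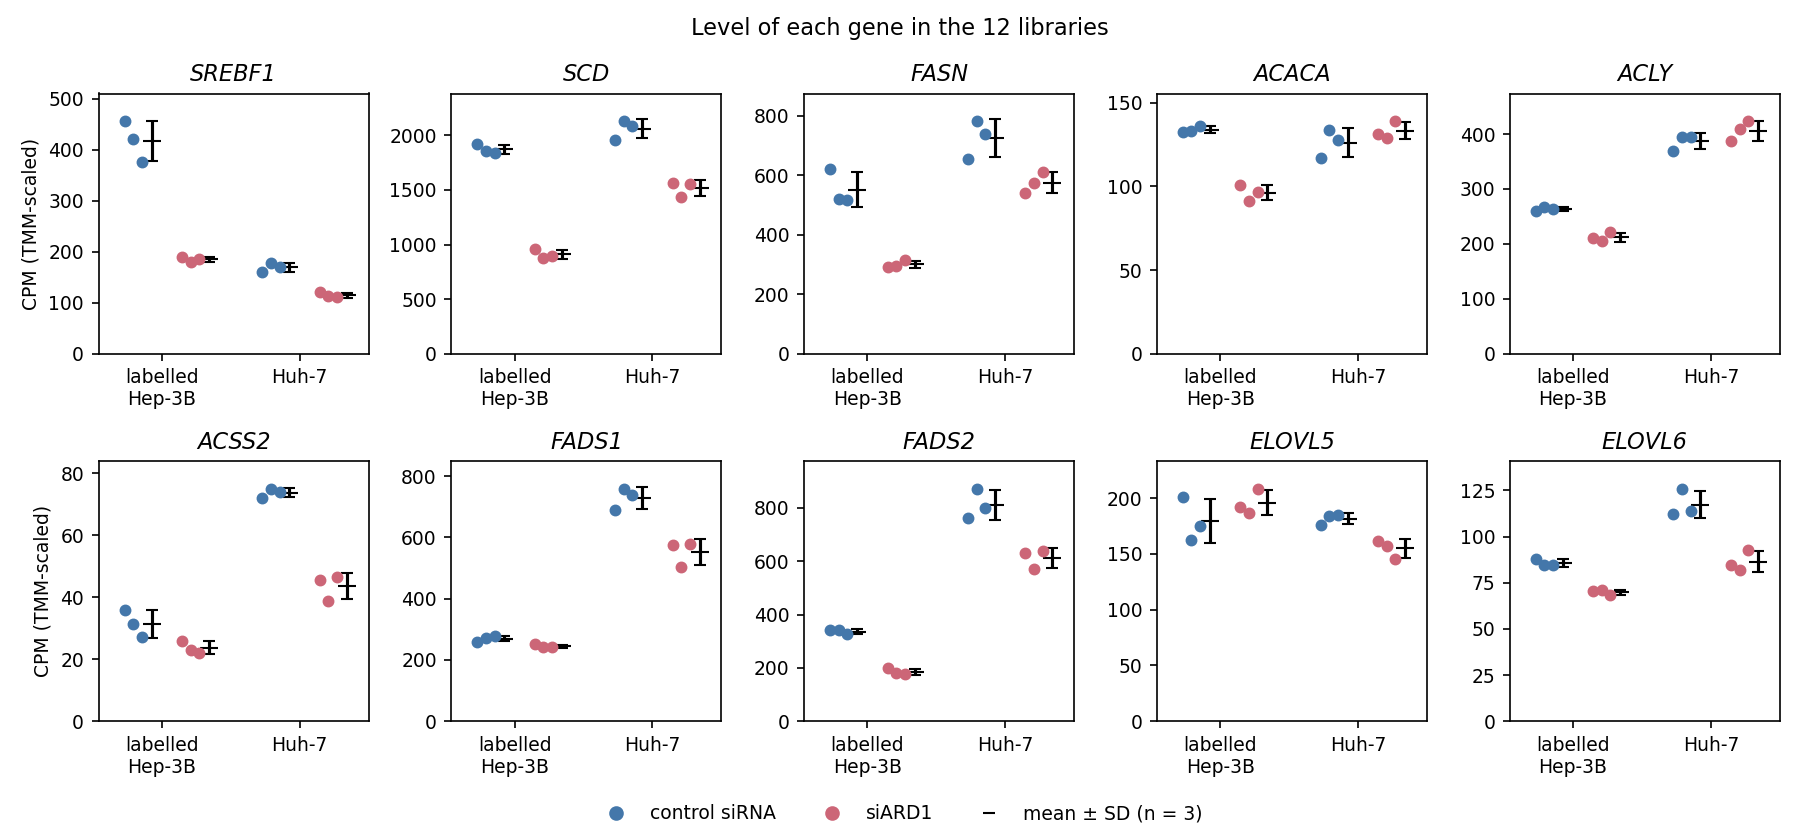
CPM of each of the 10 genes (linear axes from 0) in the 12 libraries, by group. Points are libraries, and black bars are the group mean ± SD (n = 3). SREBF1, SCD, FASN and FADS2 separate widely in the libraries labelled Hep-3B, where SREBF1 fell from 376 to 456 CPM to 179 to 189.7 CPM, while ACACA and ACLY overlap between the Huh-7 groups.

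In Huh-7, the same count of 8 of 10 genes fell and 0 rose, where 18.9% of the 15919 genes tested were lower, 21.2% were higher and 40.1% changed either way. ACSS2 fell the most, to 59.2% of control, and SREBF1 to 67.8%. SCD, FADS1, FADS2 and ELOVL6 fell to between 73.6% and 75.7%, FASN to 79.4% and ELOVL5 to 85.3%. ACACA and ACLY did not pass. The median log2 fold change was -0.40 over the 10 genes and -0.008 over all genes tested.

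SREBF1 was at 161, 178 and 169 CPM in the Huh-7 controls and at 121, 112 and 112 CPM after siARD1. The groups did not overlap, and the log2 fold change was -0.56 (SE 0.06, 95% interval -0.68 to -0.45, edgeR adjusted p = 6.29e-08). ACSS2 was at 72.0, 74.9 and 73.8 CPM in the controls and at 45.5, 38.8 and 46.4 CPM after siARD1. That gap was several times the spread of either group, and the log2 fold change was -0.76 (SE 0.07, edgeR adjusted p = 2.21e-08).

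SCD was at 1961, 2128 and 2090 CPM in the Huh-7 controls and at 1563, 1431 and 1556 CPM after siARD1 (log2 fold change -0.44, SE 0.06, edgeR adjusted p = 2.44e-06). FASN was at 655, 781 and 739 CPM in the controls and at 539, 575 and 612 CPM after siARD1. Control 1 of FASN was the library nearest to the siARD1 group, and the log2 fold change was -0.33 (SE 0.06, edgeR adjusted p = 0.000292) and became -0.21 (edgeR adjusted p = 0.0366) with offsets for GC content and length.

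Both polyunsaturated desaturases fell alike in size in Huh-7. FADS1 was at 689, 758 and 739 CPM in the controls and at 575, 502 and 579 CPM after siARD1. FADS2 was at 761, 871 and 798 CPM in the controls and at 631, 569.9 and 639 CPM after siARD1. Neither gene's groups overlapped, and each log2 fold change was -0.40 (SE 0.06), with edgeR adjusted p-values of 1.68e-05 for FADS1 and 1.64e-05 for FADS2.

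ELOVL6 was at 112, 126 and 114 CPM in the Huh-7 controls and at 84.7, 81.8 and 92.6 CPM after siARD1 (log2 fold change -0.44, SE 0.06, edgeR adjusted p = 5.61e-06). ELOVL5 was at 176, 184 and 185 CPM in the controls and at 162, 157 and 145 CPM after siARD1. Its groups were apart but close, and the log2 fold change was -0.23 (SE 0.05, edgeR adjusted p = 0.00167). ACACA was at 117, 134 and 128 CPM in the controls and at 132, 129 and 139 CPM after siARD1, and ACLY was at 369.8, 394 and 395 CPM and at 387, 409 and 423 CPM. Both overlapped between the groups. Their log2 fold changes were 0.08 (95% interval -0.04 to 0.19, edgeR adjusted p = 0.308) for ACACA and 0.07 (95% interval -0.04 to 0.18, edgeR adjusted p = 0.303) for ACLY. All siARD1 libraries lay below all controls for 8 of the 10 genes, against 23.9% of the genes tested in Huh-7, and above them for 0, against 26.1%.

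Across the lines, SREBF1, SCD, FASN, ACSS2, FADS2 and ELOVL6 fell in both. These are 6 of 10 genes, where 3.69% of the 13800 genes tested in both lines were lower in both. None of the 10 passed in opposite directions, which 7.75% of those genes did. The difference of the siARD1 effect between the lines (Huh-7 minus labelled Hep-3B, one edgeR fit of the 4 groups) passed for 9 of the 10 genes, where 31.4% of 17122 genes passed. It was positive for 6 of the 9 and negative for 3, where 15.2% and 16.2% of all genes passed in those directions.

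The regulator and 5 enzymes had a more negative change in the libraries labelled Hep-3B. The difference was 0.60 for SREBF1 (SE 0.09, edgeR adjusted p = 1.31e-05), 0.58 for SCD (SE 0.08, edgeR adjusted p = 4.04e-06) and 0.53 for FASN (SE 0.10, edgeR adjusted p = 0.000377). It was 0.53 for ACACA (SE 0.09, edgeR adjusted p = 2.63e-05), 0.45 for FADS2 (SE 0.09, edgeR adjusted p = 0.000304) and 0.37 for ACLY (SE 0.08, edgeR adjusted p = 0.000814). ACACA and ACLY thus fell in the libraries labelled Hep-3B only, and in Huh-7 their intervals spanned 0.

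The other 3 genes had a more negative change in Huh-7 than in the libraries labelled Hep-3B. The difference was -0.37 for ELOVL5 (SE 0.10, edgeR adjusted p = 0.00393), -0.28 for FADS1 (SE 0.09, edgeR adjusted p = 0.0134) and -0.35 for ACSS2 (SE 0.13, edgeR adjusted p = 0.038). The ACSS2 difference lost its call under 8 of 21 alternatives, among them without Hep-3B control 3 (-0.26, edgeR adjusted p = 0.138), and that of FADS1 without Huh-7 siARD1 2 (-0.21, edgeR adjusted p = 0.0576). For ELOVL6 the difference of -0.16 (95% interval -0.35 to 0.02, edgeR adjusted p = 0.182) was not resolved and was 0.03 with GC and length offsets (edgeR adjusted p = 0.862). NAA10 itself was left at 24.9% and 6.34% of control in the 2 lines, so the size of the knockdown and the line cannot be told apart.

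**Figure D2:**
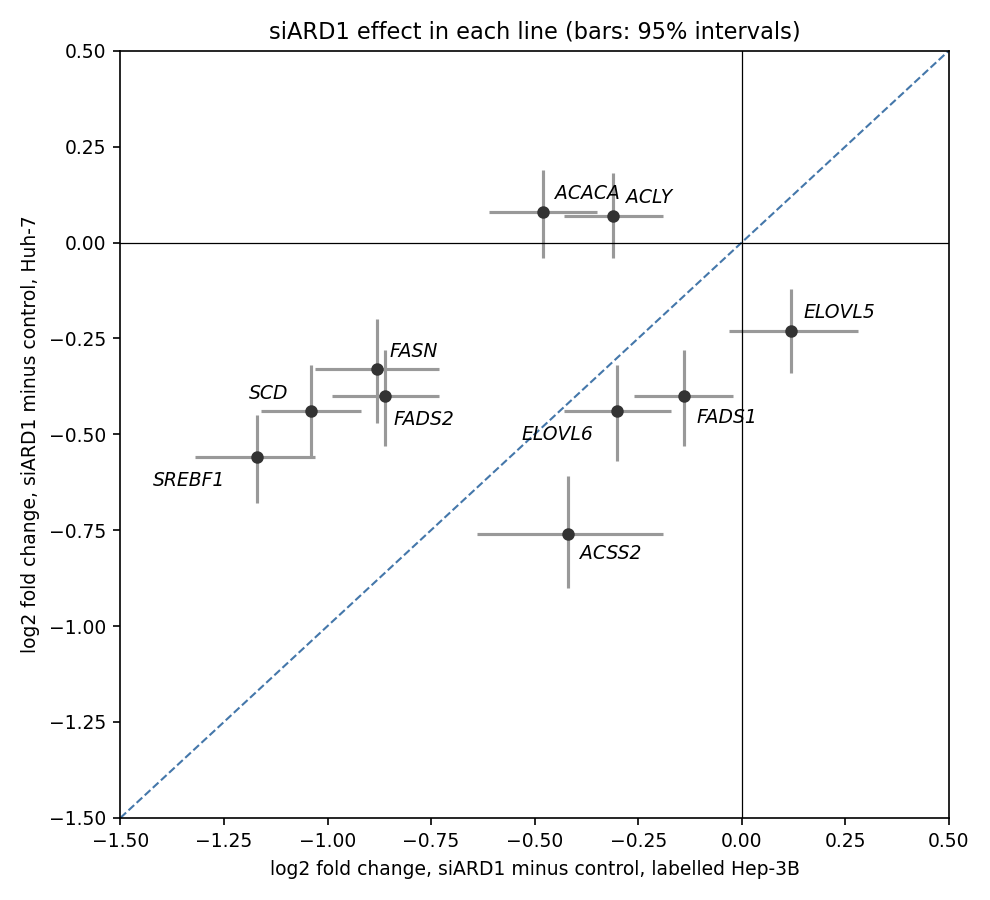
Log2 fold change of each gene (siARD1 minus control) in the libraries labelled Hep-3B (x axis) and in Huh-7 (y axis), with 95% intervals as bars and equal effects on the dashed line. SREBF1, SCD, FASN, FADS2, ACACA and ACLY lie above the line, and ACSS2, FADS1 and ELOVL5 lie below it.

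FADS1 and FADS2 share a locus on chromosome 11, and their ratio was examined after the values had been seen. The count ratio of FADS2 to FADS1 was 1.31, 1.25 and 1.18 in the controls labelled Hep-3B and 0.791, 0.746 and 0.726 after siARD1. These are counts not scaled to length, so the ratio shows an unequal change and not which message was the more abundant. Per length, with this line scaled alone, FADS2 was above FADS1 before and after siARD1, at 67.5 and 34.1 CPM per kilobase in the controls and at 37.1 and 31.0 after siARD1. In Huh-7 the ratio was 1.10, 1.15 and 1.08 in the controls and 1.10, 1.14 and 1.10 after siARD1, and the groups overlapped. The exact two-sided permutation p was 0.1 in the libraries labelled Hep-3B, the smallest that 3 against 3 can give, and 1 in Huh-7. In GENCODE v29 exons of FADS1 and FADS2 share 142 bases on opposite strands, 1.80% of FADS1 and 2.85% of FADS2, and FADS2 shares 49 bases with FEN1. The strand setting of the counting is not given in the sources used here, so reads from the shared bases cannot be told apart.

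Of 6 listed neighbours of FADS1 and FADS2 on chromosome 11, 4 rose and 0 fell in the libraries labelled Hep-3B (median log2 fold change 0.38), and 3 rose and 1 fell in Huh-7 (median 0.26). FADS3, also of this locus, is counted with the enzymes below and not among the 6. It passed in neither line (0.17, edgeR adjusted p = 0.139, and 0.08, edgeR adjusted p = 0.432). Of all genes tested, 16.8% rose and 15.3% fell in the former and 21.2% rose and 18.9% fell in Huh-7. FTH1, the ferritin heavy chain, rose by 0.44 (edgeR adjusted p = 0.000101) and 0.30 (edgeR adjusted p = 0.000625) on the log2 scale in the 2 lines. MYRF, next to the locus, had log2 fold changes of -0.12 (edgeR adjusted p = 0.126) and -0.27 (edgeR adjusted p = 0.000203).

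**Figure D3:**
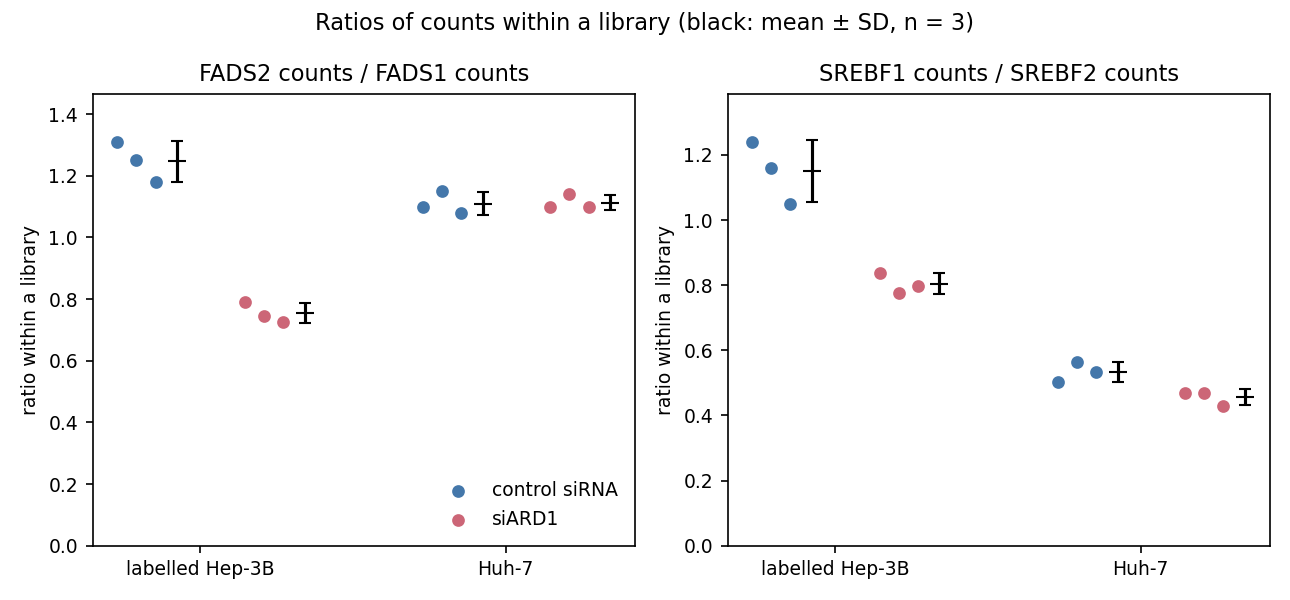
Count ratios of FADS2 to FADS1 and of SREBF1 to SREBF2 in each library (linear axes from 0), by group, with the mean ± SD (n = 3) in black. FADS2 to FADS1 lies between 1.18 and 1.31 in the controls labelled Hep-3B and between 0.726 and 0.791 after siARD1, and overlaps between the Huh-7 groups.

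SREBF1 was compared with its paralog SREBF2, whose product SREBP-2 mainly drives cholesterol synthesis. SREBF2 was at 366, 363 and 358 CPM in the controls labelled Hep-3B and at 226, 231 and 233 CPM after siARD1 (log2 fold change -0.65, SE 0.05, edgeR adjusted p = 7.38e-07). In Huh-7 it was at 321, 315 and 318 CPM and at 257, 239 and 260.1 CPM (log2 fold change -0.34, SE 0.05, edgeR adjusted p = 2.19e-05). Both paralogs therefore fell in both lines. The count ratio of SREBF1 to SREBF2, also examined after the values had been seen, was 1.24, 1.16 and 1.05 in the controls labelled Hep-3B and 0.839, 0.775 and 0.799 after siARD1. In Huh-7 it was 0.502, 0.564 and 0.533 in the controls and 0.470, 0.470 and 0.429 after siARD1. The groups did not overlap in either line (exact two-sided permutation p = 0.1 in each, the smallest possible), so SREBF1 counts fell by a larger share than SREBF2 counts in these libraries.

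The levels of the genes before siARD1 were compared per length, as CPM per kilobase of exon (GENCODE v29 gene models), with both lines scaled together. In the controls labelled Hep-3B, SCD was highest at 371 ± 9.22 CPM per kilobase (SD, n = 3), followed by SREBF1 at 98.8 ± 9.54, FADS2 at 71.8 ± 1.67, FASN at 68.5 ± 7.55, ACLY at 64.0 ± 0.70 and ELOVL5 at 54.8 ± 6.15. FADS1 at 36.2 ± 1.17, ELOVL6 at 13.7 ± 0.338, ACACA at 12.9 ± 0.198 and ACSS2 at 10.8 ± 1.53 CPM per kilobase were lower. FADS2 and FASN overlapped between libraries in this order, as did FASN and ACLY, so their order is not resolved.

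In the Huh-7 controls SCD was again highest, at 365 ± 17.2 CPM per kilobase, followed by FADS2 at 154 ± 10.9, FADS1 at 87.5 ± 4.66, ACLY at 83.8 ± 3.63, FASN at 80.4 ± 7.43 and ELOVL5 at 49.5 ± 1.72. SREBF1 at 35.8 ± 1.90, ACSS2 at 22.5 ± 0.546, ELOVL6 at 16.8 ± 1.06 and ACACA at 10.9 ± 0.79 CPM per kilobase were lower (SD, n = 3 each). FADS1, ACLY and FASN overlapped between libraries. SREBF1 was thus the second in the order of the controls labelled Hep-3B and the seventh in that of Huh-7.

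Between the controls (Huh-7 minus labelled Hep-3B), 6 of the 10 genes were higher in Huh-7 and 3 were lower, where 40.7% and 40.0% of 17122 genes were and 80.7% differed either way. FADS1 was higher by 1.27 on the log2 scale (edgeR adjusted p = 1.76e-17), FADS2 by 1.10 (edgeR adjusted p = 1e-15) and ACSS2 by 1.06 (edgeR adjusted p = 1.07e-11). ACLY, ELOVL6 and FASN were higher by 0.39, 0.29 and 0.23 on that scale (edgeR adjusted p = 4.11e-07, 0.000149 and 0.00647). SREBF1 had a log2 difference of -1.47 (edgeR adjusted p = 2.2e-18), ACACA of -0.25 (edgeR adjusted p = 0.0006) and ELOVL5 of -0.15 (edgeR adjusted p = 0.0479). SCD did not pass, with a log2 difference of -0.03 (95% interval -0.15 to 0.09, edgeR adjusted p = 0.685). The smaller of these differences depend on the setting: ELOVL5 lost its call under 12 of 19 alternatives. ACACA (-0.10) and ELOVL6 (0.12) lost theirs with GC and length offsets, under which FASN was 0.74 higher.

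Together the 10 genes made up 0.434, 0.405 and 0.393% of all counts in the controls labelled Hep-3B and 0.249, 0.239 and 0.243% after siARD1. In Huh-7 the shares were 0.519, 0.562 and 0.547% in the controls and 0.421, 0.403 and 0.420% after siARD1. The groups did not overlap in either line (exact two-sided permutation p = 0.1). Per length, SCD made up 46.3% of the summed level of the 10 genes in the controls labelled Hep-3B and 38.1% after siARD1 (SD 0.681 and 0.862, n = 3 each). In Huh-7 the share of SCD was 40.2% and 38.0% (SD 0.379 and 0.569, n = 3 each). SCD thus carried a like share of the summed level in both siARD1 groups.

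**Figure D4:**
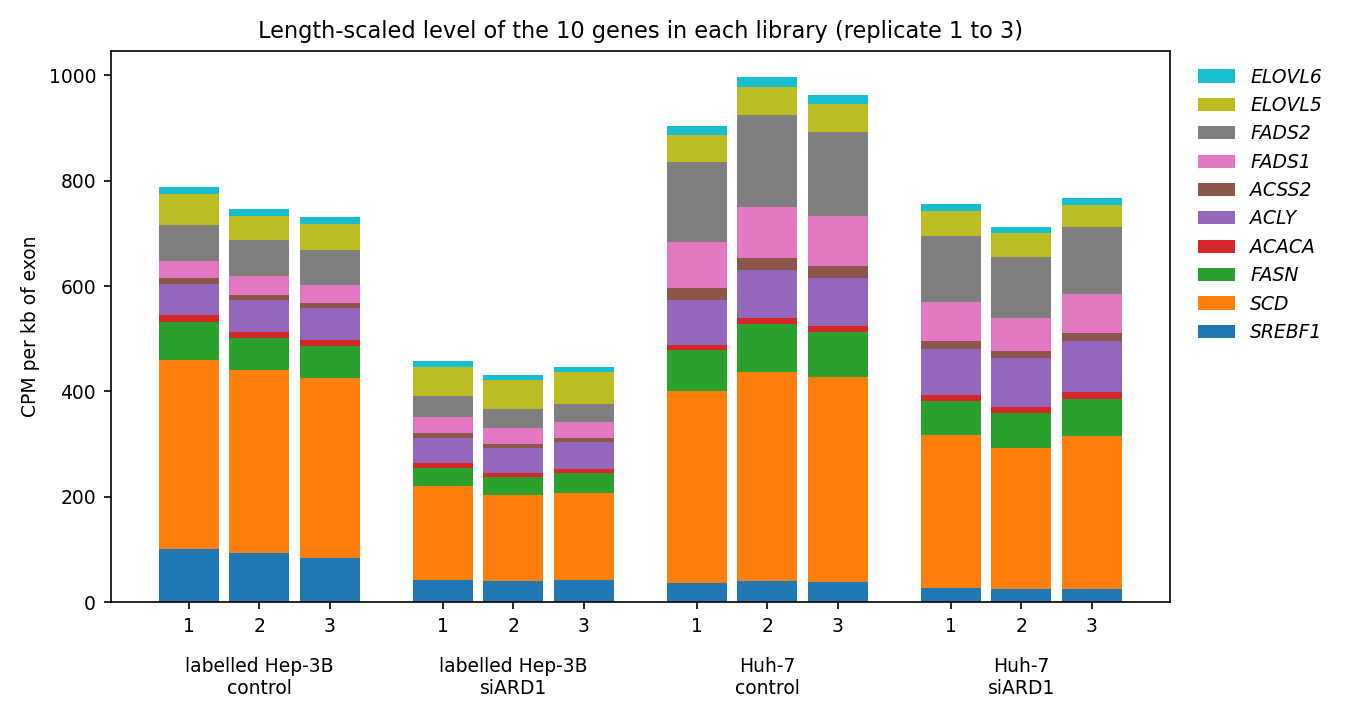
Summed level of the 10 genes in each library (CPM per kilobase of exon, linear axis from 0), split by gene. The sum was 731 to 787 in the controls labelled Hep-3B and 432 to 458 after siARD1, and 904 to 997 and 712 to 768 in Huh-7, with SCD the largest share in every library.

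The genes whose levels moved most like SREBF1 were sought over the 12 libraries, with Pearson's r on log2 CPM after subtraction of each line's mean. These libraries share the siARD1 contrast, so the correlations are a description. Of the 9493 other protein-coding genes averaging 5 CPM or more in both lines, SCD had the highest r with SREBF1, at 0.992. It was followed by H2BC21, a histone H2B gene (0.985), FADS2 (0.985) and SREBF2 (0.985). FASN ranked 10 (0.972). The other members were less like SREBF1, with ELOVL6 at 0.83, ACACA at 0.794, ACSS2 at 0.788, ACLY at 0.744, FADS1 at 0.651 and ELOVL5 at 0.046.

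The counts of the lists that follow stand beside 16.8% of all genes tested higher, 15.3% lower and 32.2% changed in the libraries labelled Hep-3B, and 21.2% higher, 18.9% lower and 40.1% changed in Huh-7. Of 17 genes that control SREBP processing, all tested, 7 rose and 3 fell in the libraries labelled Hep-3B (median log2 fold change 0.09), and 1 rose and 7 fell in Huh-7 (median -0.06). INSIG1, which retains the SREBP precursor and is itself a known SREBP target, was at 224, 167 and 172 CPM in the controls labelled Hep-3B and at 117, 99.4 and 122 CPM after siARD1. In Huh-7 it was at 119, 138 and 129.6 CPM and at 80.9, 77.4 and 74.1 CPM. The groups did not overlap in either line, and INSIG1 fell by 0.74 (edgeR adjusted p = 0.00113) and 0.73 (edgeR adjusted p = 5.51e-09) on the log2 scale, with a difference between the lines of -0.01 (SE 0.15, edgeR adjusted p = 0.955). Its paralog INSIG2 had log2 fold changes of -0.01 (edgeR adjusted p = 0.901) and -0.86 (edgeR adjusted p = 4.66e-09), which differed between the lines (edgeR adjusted p = 2.35e-07). With GC and length offsets INSIG2 passed in the libraries labelled Hep-3B too (-0.32, edgeR adjusted p = 0.00241). MBTPS2, the site-2 protease, rose by 0.42 in the libraries labelled Hep-3B (edgeR adjusted p = 0.00166) and fell by 0.20 in Huh-7 (edgeR adjusted p = 0.0189) on the log2 scale. Neither MBTPS2 call held with GC and length offsets (0.06, edgeR adjusted p = 0.644, and -0.11, edgeR adjusted p = 0.195). The Huh-7 call of MBTPS2 was also lost without control 3 (-0.19, edgeR adjusted p = 0.0883), siARD1 1 (-0.18, edgeR adjusted p = 0.0621) or siARD1 2 (-0.19, edgeR adjusted p = 0.0593).

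Of 16 other activators of lipogenic genes tested in each line (17 listed), 1 rose and 8 fell in the libraries labelled Hep-3B (median -0.19, with 16.8% of all genes higher and 15.3% lower), and 5 rose and 3 fell in Huh-7 (median 0.04, with 21.2% and 18.9%). NR1H3 encodes LXR alpha, which activates SREBF1 transcription. It was at 27.6, 33.0 and 30.5 CPM in the controls labelled Hep-3B and at 13.8, 17.4 and 14.2 CPM after siARD1, a log2 fold change of -1.0 (edgeR adjusted p = 5.87e-06). In Huh-7 it was at 35.6, 36.5 and 36.6 CPM and at 34.4, 36.4 and 36.3 CPM, and the groups overlapped (log2 fold change -0.02, edgeR adjusted p = 0.82). The NR1H3 effect differed between the lines by 0.96 (SE 0.13, edgeR adjusted p = 1.79e-06). MLXIPL, which encodes the carbohydrate-responsive factor ChREBP, had log2 fold changes of -0.17 (edgeR adjusted p = 0.222) and -0.56 (edgeR adjusted p = 6.33e-05), with a difference of -0.40 (edgeR adjusted p = 0.0357). NFYB, an NF-Y subunit gene, was the 1 activator that rose in the libraries labelled Hep-3B (0.93, edgeR adjusted p = 0.000131), with -0.01 in Huh-7 (edgeR adjusted p = 0.926). NFYA, another, had -0.28 (edgeR adjusted p = 0.009) and 0.14 (edgeR adjusted p = 0.0386), the latter a call kept in 7 of 16 alternatives. SP1 had -0.05 (edgeR adjusted p = 0.553) and -0.22 (edgeR adjusted p = 0.00155). Of 6 LXR target genes, 3 were tested in the libraries labelled Hep-3B, of which 1 fell (ABCA1, -0.36, edgeR adjusted p = 0.00096), and 6 in Huh-7, of which 4 fell and 0 rose. The shares of all genes that fell were 15.3% and 18.9%. In Huh-7, MYLIP had a log2 fold change of -1.15 (edgeR adjusted p = 4.79e-08), a call kept in 16 of 16 alternatives. In the libraries labelled Hep-3B the MYLIP value was -0.07 (edgeR adjusted p = 0.571) and did not pass. ABCG1, at low counts, went from a mean of 2.33 to 0.415 CPM in Huh-7 (edgeR adjusted p = 7.44e-06), kept in 16 of 16. The Huh-7 fall of ABCG8, a sterol transporter (-0.34, edgeR adjusted p = 0.0222), kept its call in 10 of 16 alternatives. It was lost with all 12 libraries in one fit (edgeR adjusted p = 0.0659) and without any one of controls 1, 2 and 3 and siARD1 libraries 1 and 2 (edgeR adjusted p = 0.055, 0.0664, 0.0556, 0.0528 and 0.0871).

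Lists of enzymes near the 10 genes in the pathway are set beside the same shares of all genes, 16.8% higher and 15.3% lower in the libraries labelled Hep-3B and 21.2% and 18.9% in Huh-7. Of 29 further enzymes of fatty acid synthesis, elongation and desaturation, 6 of 24 tested rose and 5 fell in the libraries labelled Hep-3B (median -0.06), and 4 of 26 rose and 10 fell in Huh-7 (median -0.11). ME1, the malic enzyme that supplies NADPH, rose by 0.38 (edgeR adjusted p = 0.000455) and 0.51 (edgeR adjusted p = 3.37e-07) on the log2 scale. Of the genes that fell in Huh-7, ACSS3 (-0.29, edgeR adjusted p = 0.000304) and ACACB (-0.34, edgeR adjusted p = 0.000375) had the smallest adjusted p. In the libraries labelled Hep-3B, ACSS3 had -0.67 (edgeR adjusted p = 0.0159), a call kept in 14 of 16 alternatives. ACACB had -0.05 there (edgeR adjusted p = 0.731). Of 25 genes of fatty acid activation and glycerolipid synthesis, 3 of 22 tested rose and 8 fell in the libraries labelled Hep-3B (median -0.02), and 4 of 24 rose and 11 fell in Huh-7 (median -0.08). PLIN2, a lipid droplet coat protein, went from 223 ± 22.8 to 161 ± 3.32 CPM in the libraries labelled Hep-3B and from 251 ± 17.5 to 381 ± 37.4 CPM in Huh-7 (SD, n = 3 each), log2 fold changes of -0.47 (edgeR adjusted p = 9.87e-05) and 0.60 (edgeR adjusted p = 8.15e-07). Of 21 genes of fatty acid oxidation, 2 rose and 5 fell in the libraries labelled Hep-3B, and 3 rose and 4 fell in Huh-7 (median -0.04), where 32.2% and 40.1% of all genes changed either way. CPT1A, which admits fatty acids to mitochondria, rose by 0.40 (edgeR adjusted p = 0.000186) and 0.19 (edgeR adjusted p = 0.00497) on the log2 scale, and with upper-quartile scaling the Huh-7 value was 0.12 (edgeR adjusted p = 0.0501).

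**Figure D5:**
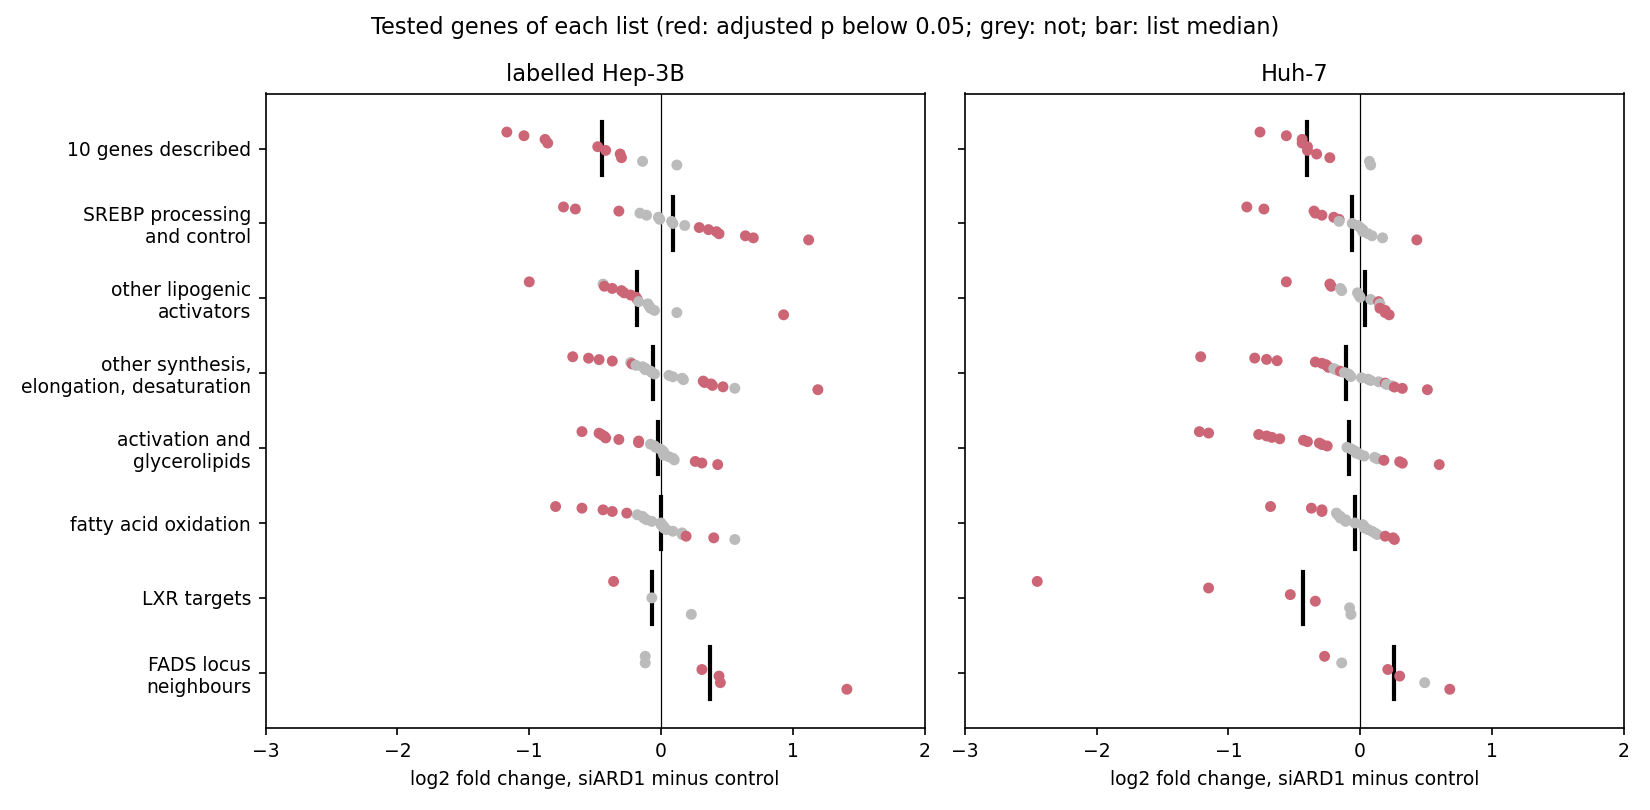
Log2 fold change (siARD1 minus control) of every tested gene of the 10 and of the 7 other lists, by line, with points for genes and bars for medians. The medians of the 10 genes are -0.45 in the libraries labelled Hep-3B and -0.40 in Huh-7, against -0.011 and -0.008 over all genes tested.

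Marker lists were summed in each group. The summed level of 11 liver markers ran from 427 to 515 CPM in the controls labelled Hep-3B and from 229 to 243 CPM after siARD1, where APOA2 and TTR were at 0. In Huh-7 it ran from 29887 to 31849 CPM and from 22471 to 26916 CPM. The summed level of 5 adipocyte markers ran from 29.9 to 34.7 and from 19.7 to 24.4 CPM in the libraries labelled Hep-3B, with LEP at 0 throughout, and from 3.81 to 5.09 and from 6.54 to 7.85 CPM in Huh-7, with ADIPOQ, LEP and FABP4 at 0. The 6 fibroblast markers summed to 162 to 173 and 136 to 172 CPM in the libraries labelled Hep-3B, with COL1A2 and THY1 at 0, and to 33.5 to 38.5 and 26.1 to 27.9 CPM in Huh-7, with THY1 at 0. The 4 endothelial markers summed to 53.0 to 65.6 and 63.1 to 76.1 CPM in the former and to 13.1 to 14.4 and 10.8 to 13.2 CPM in Huh-7. The 4 leukocyte markers summed to 0.194 to 0.522 and 0 to 0.304 CPM in the former, with CD3E and LYZ at 0, and to 83.3 to 87.8 and 85.8 to 105.3 CPM in Huh-7, with CD3E at 0. That Huh-7 sum was nearly all LYZ, at 82.9 to 105.0 CPM, with PTPRC at 0.26 to 0.455 and CD68 at 0 to 0.262 CPM. In the libraries labelled Hep-3B, LUM (104.2 to 145.4 CPM) and DCN (20.3 to 27.4) made up most of the fibroblast sum. KDR (33.4 to 57.6 CPM) and PECAM1 (14.7 to 24.6) made up most of the endothelial sum there. Over both groups of that label, FGB (135.3 to 368.1 CPM) was the largest part of the liver sum, and HNF4A stayed at 42.6 to 48.6 CPM. CIDEC (12.9 to 27.1 CPM) and PLIN1 (5.75 to 8.08) made up nearly all of the adipocyte sum there. In Huh-7, ALB was the largest part of the liver sum, and CIDEC (1.45 to 5.32 CPM) and PLIN1 (1.97 to 3.41) made up the adipocyte sum. The liver and adipocyte sums did not overlap between groups in either line, nor did the fibroblast sum in Huh-7. A sum can thus shift through 1 gene. The part of these shifts in the falls of SREBF1 and its targets was not tested.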

How the data were processed

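Per the labels' protocols, directional libraries were built from total RNA after removal of ribosomal RNA. The submitters' processing notes name cutadapt 4.6, STAR 2.7.11b and GRCh38. The authors deposited raw counts per Ensembl gene, 1 table per line, and all columns were mapped to a sample. Which tool counted the reads, on which annotation and with which strand setting, is not given in the sources used here. The 10 genes and the 7 other lists were chosen with earlier results of these data known.

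Each line was tested in R 4.3.3 with edgeR 4.0.16 (filterByExpr with a minimum count of 10 and a minimum total of 15, TMM factors, robust quasi-likelihood F-test). Benjamini-Hochberg adjustment ran over all genes tested, with a threshold of 0.05, and "rose" and "fell" are used of genes past it. Differences between lines came from one fit of the 4 groups. SE is the size of the log2 fold change divided by sqrt(F), and 95% intervals use the t distribution. With 3 libraries a group, intervals cover the spread between these libraries. Named were the 10 genes, NAA10, from each list up to 3 genes per line with the smallest adjusted p, genes changed in opposite directions in the lines, and the 5 genes most like SREBF1, of which 1 is not reported here. Of these list genes the text gives some, picked after their values were seen. SCAP, MBTPS1 and FADS3 were named outside this rule. Positions and exon lengths came from GENCODE v29. As alternatives, the fits were repeated with upper-quartile and RLE factors, limma-voom (limma 3.58.1), DESeq2 1.42.0, no filter, 1 CPM in 3 libraries, GC and length offsets, a replicate block, all 12 libraries in one fit and each library left out. The fitting steps were run on simulated negative binomial counts with spreads estimated from these data. Such counts cannot show whether the model holds for these libraries. Figures were drawn with matplotlib 3.10.9.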

Additional observations from a re-analysis of the deposited data

Results flagged for a closer look

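For 9 of the 10 genes the siARD1 effect differed between the lines by the edgeR test of the difference itself. On the log2 scale (Huh-7 minus labelled Hep-3B) the difference was 0.60 for SREBF1, 0.58 for SCD, 0.53 for FASN, 0.53 for ACACA, 0.45 for FADS2 and 0.37 for ACLY. It was -0.37 for ELOVL5, -0.35 for ACSS2 and -0.28 for FADS1. The difference passed for 31.4% of all genes tested.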

How the results depend on the processing

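The calls of the 10 genes kept their direction and their side of the threshold in 157 of 160 alternative values in the libraries labelled Hep-3B and in 160 of 160 in Huh-7. The same held for 201 of 210 values of the difference between lines and 176 of 190 of the controls. The ACSS2 difference lost its call with DESeq2 (-0.33, adjusted p = 0.0626), with RLE factors (-0.33, edgeR adjusted p = 0.0516) and without 1 library in 6 cases. These were Hep-3B control 2 (-0.32) and 3 (-0.26), Hep-3B siARD1 1 (-0.29), Huh-7 control 2 (-0.34) and 3 (-0.35), and Huh-7 siARD1 2 (-0.27). Leaving out each library in turn gave 3695 to 4922 changed genes in the libraries labelled Hep-3B, 5249 to 6137 in Huh-7, 4739 to 5579 for the difference and 13515 to 14132 between controls. Of the 10 genes, 8 to 9 were then lower and 0 to 1 higher in the libraries labelled Hep-3B (1 being ELOVL5, without control 1). The difference between lines passed with a more negative change in Huh-7 for 1 to 3. Among the list genes described, calls changed for MBTPS2 in both lines, and for INSIG2 and ACSS3 in the libraries labelled Hep-3B. In Huh-7 they changed for ABCG8, CPT1A, NFYA and PAQR3. These changes are given with the values of the genes. The alternatives for SCAP, MBTPS1 and FADS3 are not given. For ACSL4, another gene of the glycerolipid list, the Hep-3B value, 0.26, became -0.02 with GC and length offsets (edgeR adjusted p = 0.87) and -0.02 with these and the replicate block (edgeR adjusted p = 0.873). The cause was not tested.

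Same-numbered libraries had correlated deviations of 0.034, 0.065 and 0.064 in the libraries labelled Hep-3B and 0.052, -0.065 and 0.007 in Huh-7. Differently numbered libraries had values from -0.055 to -0.01 in the former and from -0.103 to 0.108 in Huh-7. Deviations were taken from the mean of each group, so the values of a library with the other group sum to about 0. Negative values for different numbers therefore add nothing to positive values for the same number. Whether the numbers pair the libraries is not settled by these values. The main fits did not pair libraries, and the replicate block was run as an alternative. With the replicate block 5597 genes changed in the libraries labelled Hep-3B (5070 without), 6328 in Huh-7 (6388) and 5606 for the difference (5380), and the pairing changed no call of the 10 genes. Upper-quartile scaling moved the share of rises among changed genes in Huh-7 from 52.9% to 39.7%, and GC and length offsets moved that of positive differences from 48.5% to 61.9%. Between controls upper-quartile scaling moved the median of all genes from 0.026 to 0.126. With 3 libraries a group, small changes such as those of FADS1 and ELOVL5 in the libraries labelled Hep-3B lie near what the spread can resolve.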
